A study of Mus musculus with 4 samples.

Results

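The regions described here were more accessible in naive T helper cells than in regulatory T cells (Treg) and in other effector cells of mice given house dust mite, and were listed in no other comparison of the study. They were chosen from the authors' own differential calls: rows of the 6 deposited lists that overlapped by at least 1 bp were joined, and a joined region was kept when it held rows of the naive versus other effector and the naive versus Treg lists and of no other list. This gave 1325 of 52537 regions, or 2.52% of all, and they are called Treg-low naive regions below. The name stands for the lists that hold them, not for a loss particular to Treg cells. By the deposited values, other effector cells were as low as Treg cells or lower at each region, to within 0.01. Absence from the 3 lists that involve Th2 cells was thus part of the choice. The lists hold no Th2 value for these regions, and whether Th2 cells lay between naive and Treg cells was not measured.

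Accessibility was measured by ATAC-seq, in which a transposase cuts and tags open DNA. In this asthma model, mice were sensitized with house dust mite extract and then challenged with it, and CD3+ CD4+ cells were sorted at day 15. The naive group was CD44lo, with a further naive surface marker in the gate, and came from mLN, as the labels abbreviate it, whereas the Treg (CD25hi CD30L-), other effector (CD44+ ST2- CD30L+) and Th2 (CD44+ ST2+ CD30L+) groups came from lung with airways. Each group is 1 sample of the series, for which 3 biological replicates and 1000 cells were sorted, per the labels' protocols, which give no strain, sex or age. Sample titles say day 15 for all groups, while the descriptions of the naive and other effector samples carry D10. The protocol gives mLN for naive cells, while their source label gives lung and airways as for the other groups. In every comparison with naive cells, population and tissue cannot be told apart. Sorted cells were measured in bulk, so fewer cells with an open region and less opening per cell cannot be told apart either.

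A fold here is the authors' own value from their deposited tables, read as log2 and given as naive minus the other population, so each unit is a factor of 2. The tables hold no replicate values, read counts or p-values, so depth is unknown, no fold has an error and no difference between populations was tested again. Intervals below are exact (Clopper-Pearson) 95% binomial intervals. They carry counting error alone, since a region is no replicate. The labelled populations carried their defining genes. In the naive versus Treg list, all 18 regions of the Treg genes Foxp3, Il2ra, Ctla4 and Ikzf2 were higher in Treg cells. All regions of Ccr7 (6), Lef1 (10) and Tcf7 (8) in that list were higher in naive cells. In the naive versus Th2 list, all 19 regions of Il4, Il5, Il13 and Il1rl1 were higher in Th2 cells. Regions of these genes that only other lists hold are not counted here. Il2ra and Il1rl1 encode the sort markers CD25 and ST2.

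Naive T helper cells circulate through lymph nodes and are held in a resting state by transcription factors such as TCF-1, encoded by Tcf7, and BACH2. On activation a T cell reads antigen through the T cell receptor and its CD3 chains, and many regions open in the naive state close. Treg cells, which restrain immune responses under the control of FOXP3, are antigen-experienced cells when found in tissue.

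Among the Treg-low naive regions, 40 overlapped the promoter window of a protein-coding gene (250 bases before to 50 after a start site), out of 1279 on the chromosomes that the promoter table covers. The sequences of 5 of these promoters are shown, because a region covered each of them whole and they stood out by fold or by gene, a choice made after the values were seen. Sox4 encodes a transcription factor of lymphocyte development, St8sia1 the GD3 ganglioside synthase, Themis a thymocyte signalling protein, Rasgrp3 an activator of Ras, and Igfbp4 a binding protein of insulin-like growth factors. Each is the 250 bases before the start, 5′ to 3′ on the gene's strand, from RefSeq on GRCm38.p6. Capitals mark a match to GGGTGTG or its reverse complement, the letters searched for KLF factors. None of the other motifs searched, given below, occurs in these 5 stretches.
Sox4, chr13:28953700-28953949, minus strand: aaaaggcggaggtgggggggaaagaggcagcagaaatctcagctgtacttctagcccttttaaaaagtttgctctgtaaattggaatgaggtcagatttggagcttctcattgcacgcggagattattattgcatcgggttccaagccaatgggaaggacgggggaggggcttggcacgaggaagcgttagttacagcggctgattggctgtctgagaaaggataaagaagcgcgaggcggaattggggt
St8sia1, chr6:142964453-142964702, minus strand: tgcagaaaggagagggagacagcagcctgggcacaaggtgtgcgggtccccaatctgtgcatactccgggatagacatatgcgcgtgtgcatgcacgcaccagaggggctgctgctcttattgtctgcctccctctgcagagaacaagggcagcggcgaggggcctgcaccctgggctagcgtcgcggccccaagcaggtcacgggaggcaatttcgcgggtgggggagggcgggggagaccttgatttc
Themis, chr10:28668110-28668359, plus strand: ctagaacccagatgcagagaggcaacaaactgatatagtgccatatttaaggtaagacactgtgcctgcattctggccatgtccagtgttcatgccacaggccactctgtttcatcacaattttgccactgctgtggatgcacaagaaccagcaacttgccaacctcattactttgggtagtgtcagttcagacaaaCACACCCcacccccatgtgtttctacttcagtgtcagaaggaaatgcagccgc
Rasgrp3, chr17:75465288-75465537, plus strand: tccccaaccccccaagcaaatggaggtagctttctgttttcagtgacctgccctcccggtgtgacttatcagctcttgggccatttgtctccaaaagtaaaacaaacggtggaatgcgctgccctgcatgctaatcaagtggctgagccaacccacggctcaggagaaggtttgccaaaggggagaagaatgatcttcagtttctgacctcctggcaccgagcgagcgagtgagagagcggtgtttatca
Igfbp4, chr11:99040994-99041243, plus strand: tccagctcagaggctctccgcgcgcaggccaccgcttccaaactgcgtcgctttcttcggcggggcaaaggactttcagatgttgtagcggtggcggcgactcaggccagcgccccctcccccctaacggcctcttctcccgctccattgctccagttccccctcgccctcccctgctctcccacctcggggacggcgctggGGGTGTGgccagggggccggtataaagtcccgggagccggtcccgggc

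The promoter regions of Sox4, St8sia1 and Themis stood near the top of the set. Coordinates of regions were read as GRCm38, although the submitters' notes name mm9, because they line up with GRCm38 promoters. At Sox4 (chr13:28952941-28954072) the folds were 8.39 over other effector and 8.40 over Treg cells. The St8sia1 promoter region (chr6:142963403-142965368) was the widest of all 1325 at 1966 bp, with a fold of 8.33 over both, and 2 further regions inside the gene had 4.80 and 5.91 over Treg cells. At Themis (chr10:28667960-28668808) they were 8.14 and 8.15. Rasgrp3 had 5.97 and 5.98, and Igfbp4 5.79 and 5.80. In all 5 promoters the Treg and the other effector fold were the same to within 0.01.

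Further promoters with large folds were those of Ralgps2, an exchange factor of small GTPases (8.83 over both), Nanos1, an RNA-binding protein (8.50 over both), Efnb2, the ligand ephrin-B2 (8.06 and 8.07), and Arhgap29, a GTPase-activating protein (7.74 over both). The smallest promoter fold over Treg cells was 3.80, at Dleu7. Promoter windows were searched on both strands for 7 motifs: TTCAAAG (TCF/LEF), TGTTTAC (forkhead), CACGTG (E-box), TGACTCA (AP-1), CCGGAAG (ETS), TGTGGT (RUNX) and GGGTGTG (KLF). KLF letters were in 7 of the 40 windows (17.5%) against 8.02% of 21263 promoter windows. RUNX letters were in 5 (12.5% against 15.0%), ETS letters in 2 (5.0% against 11.6%), TCF/LEF letters in 1 (2.5% against 4.54%) and forkhead letters in 0 (against 3.01%). E-box and AP-1 letters were in 2 windows each, against 7.84% and 4.66%. With 40 windows these are descriptions of letters, not of binding.

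The share of regions at promoters was 3.13% (2.24% to 4.23%), against 1.72% (1.26% to 2.29%) of 2619 Th2-low naive regions, the matching set listed against Th2 and other effector cells only, and 1.53% (0.948% to 2.33%) of 1375 regions listed against all 3 populations. It was 2.89% (2.49% to 3.33%) of regions listed against other effector cells alone. Of all regions higher in naive than in Treg cells, which include the Treg-low naive regions, it was 3.08% (2.48% to 3.77%). Among all regions of the study it was 16.1%. Within 1 kb of a gene end lay 6.26% of Treg-low naive regions (5.02% to 7.71%), 5.24% of Th2-low ones (4.43% to 6.15%) and 3.88% of those listed against all 3 (2.94% to 5.02%). This share was higher, 8.56% (7.89% to 9.27%), in regions listed against other effector cells alone, and 21.9% over all regions of the study. The promoter intervals of the Treg-low and the Th2-low set overlap slightly, and the difference was not tested, since regions are not replicates.

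**Figure D1:**
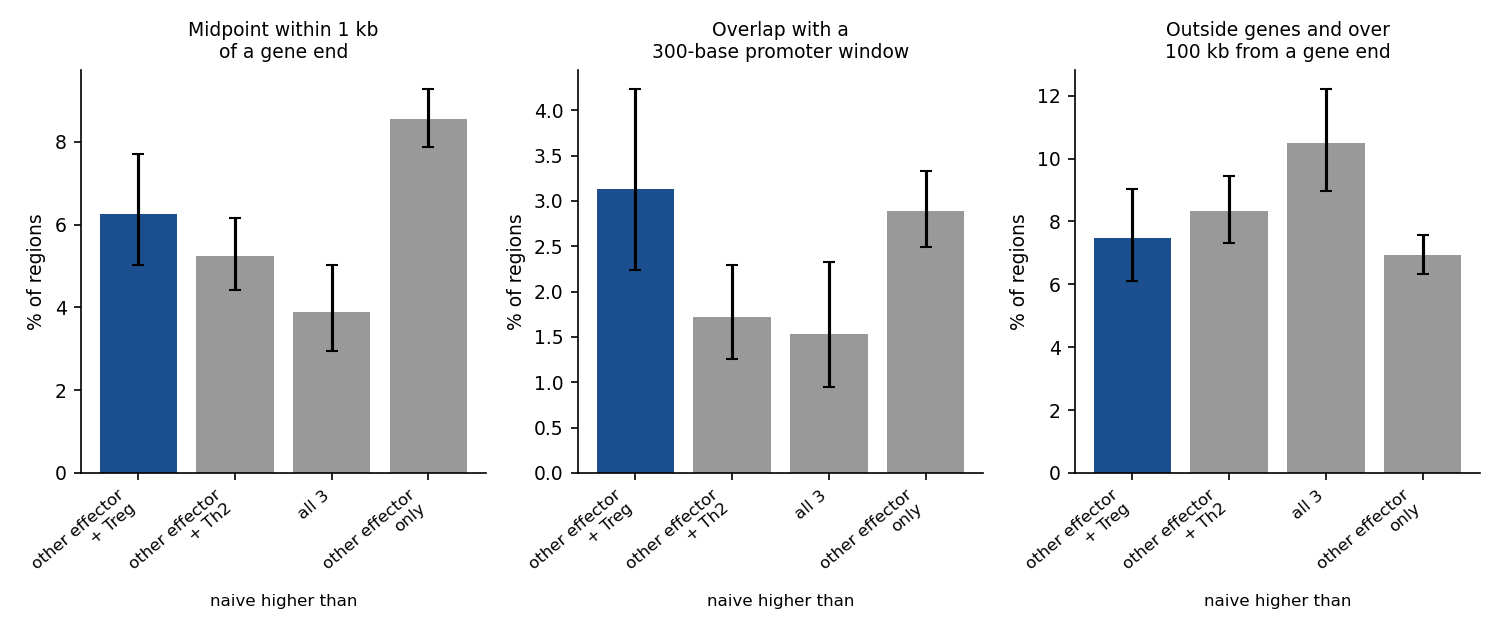
Percentage of regions (vertical axes) near a gene end, at a promoter and far from genes, for naive-high regions grouped by the populations they were listed against; bars are shares and error bars exact 95% binomial intervals over regions. Treg-low naive regions are in blue: 6.26% lay within 1 kb of a gene end, 3.13% overlapped a promoter window and 7.47% lay outside genes and over 100 kb from any gene end.

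Most Treg-low naive regions lay away from promoters. Inside a protein-coding gene were 780 (58.9%, 56.2% to 61.5%), against 60.2% of all regions of the study. Outside genes and over 100 kb from any gene end lay 99 (7.47%, 6.11% to 9.02%). That share was 8.32% in the Th2-low set, 10.5% in regions listed against all 3 and 5.12% over all regions. The median distance of the 1325 regions to the nearest gene end was 20025 bp, against 10633 bp over all regions. It was 21820 bp in the Th2-low set, 25698 bp in regions listed against all 3 and 16479 bp in those listed against other effector cells alone. A position far from gene ends was thus shared by these sets. The median width of the 1325 regions was 563 bp (range 162 to 1966 bp), against 519 bp in the Th2-low set and 614 bp in regions listed against all 3. On numbered chromosomes and X lay 1323 of them and on unplaced sequences 2. Chromosome 2 held most, 94 or 7.09%, against 8.09% of all regions.

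The values that chose the regions are given as a description only. In the background, 33.7% of all regions were listed with naive above other effector cells and 5.76% with naive above Treg cells. Over Treg cells the 1325 folds ran from 3.80 to 9.29 with a median of 5.09, against 5.32 over all 3025 regions higher in naive than in Treg cells. Over other effector cells they ran from 3.98 to 9.37 with a median of 5.51, against 5.41 over the whole list. Every one of the 3025 regions higher in naive than in Treg cells was also listed as higher than in other effector cells, with the same coordinates. In each list with other effector cells, that population was the lower one at every row. These were 17700 rows against naive, 28175 against Th2 and 24765 against Treg cells. A low level in other effector cells is thus shared by all regions of those lists. Of those 3025, the Treg-low naive regions made up 43.8%, and another 1418 were listed against Th2 cells too with no further list. At 141 more, Th2 cells were also listed above other effector cells, and at 135 above both other effector and Treg cells. Those regions, where Th2 cells had a measured value above Treg or other effector cells, are not among the 1325.

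The share of Treg-low naive regions fell with the size of the fold. Among regions with a naive minus Treg fold of up to 4.5 it was 56.1% (245 of 437), and among those over 7 it was 28.5% (112 of 393). Regions listed against all 3 made up 41.0% and 56.0% of these bins. The list's smallest naive minus Treg fold was 3.79, and the members nearest to it were those assigned to Idh2 and Dleu7, at 3.80 each, followed by Nfatc3 and Marchf6 (3.81) and Dmbt1 (3.82). The overlap rule had few close cases: 8 Treg-low naive regions had a row of another list within 50 bp, the nearest 4 bp from a region near Rasgrp1 (folds 4.73 and 4.74). Just outside the rule were regions near Eipr1 (6.75 and 5.31) and Slc38a1 (5.20 and 5.21), which a row of the other effector versus Th2 list overlapped by 150 bp.

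At 895 of the 1325 regions (67.5%) the fold over Treg cells equalled the fold over other effector cells to within 0.01. Treg and other effector cells thus had the same deposited level at these regions, relative to naive cells. This was also the lowest Treg level relative to other effector cells in the set. Whether it marks a lower limit of the measurement was not tested, so equal folds are not read as equal accessibility here or below. At the other 430 the Treg level was higher than that of other effector cells, by 0.35 to 3.55. No region had a Treg level more than 0.01 below that of other effector cells, and no difference fell between 0 and 0.35. By naive minus Treg fold, which is the lower of both where the Treg level is higher, equal folds were found at 92.9% of regions over 7 and 45.3% of those up to 4.5. Over other effector cells the 430 regions with unequal folds had a median of 6.04, while the equal regions had a median of 5.29 over Treg cells, and thus about the same over other effector cells. Equal folds were also common in regions listed against all 3 (888 of 1418, 62.6%), so they do not set the Treg-low naive regions apart. Both folds were measured against the same naive cells.

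**Figure D2:**
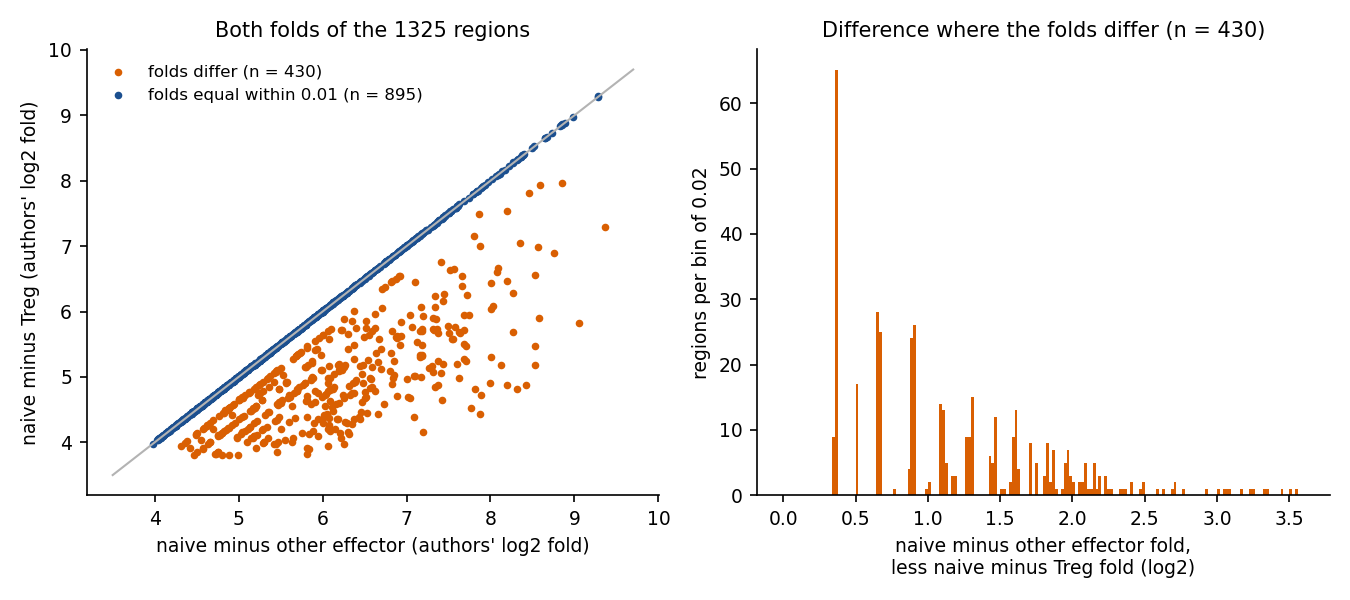
Left, the authors' log2 fold of naive over other effector cells (horizontal) and of naive over Treg cells (vertical) for each of the 1325 regions, 1 point per region; the grey line marks equal folds. Right, the number of regions in each bin of 0.02 of the difference between the 2 folds for the 430 regions where they differ: 895 regions lie on the line, and the differences start at 0.35 and gather at separate values.

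**Figure D3:**
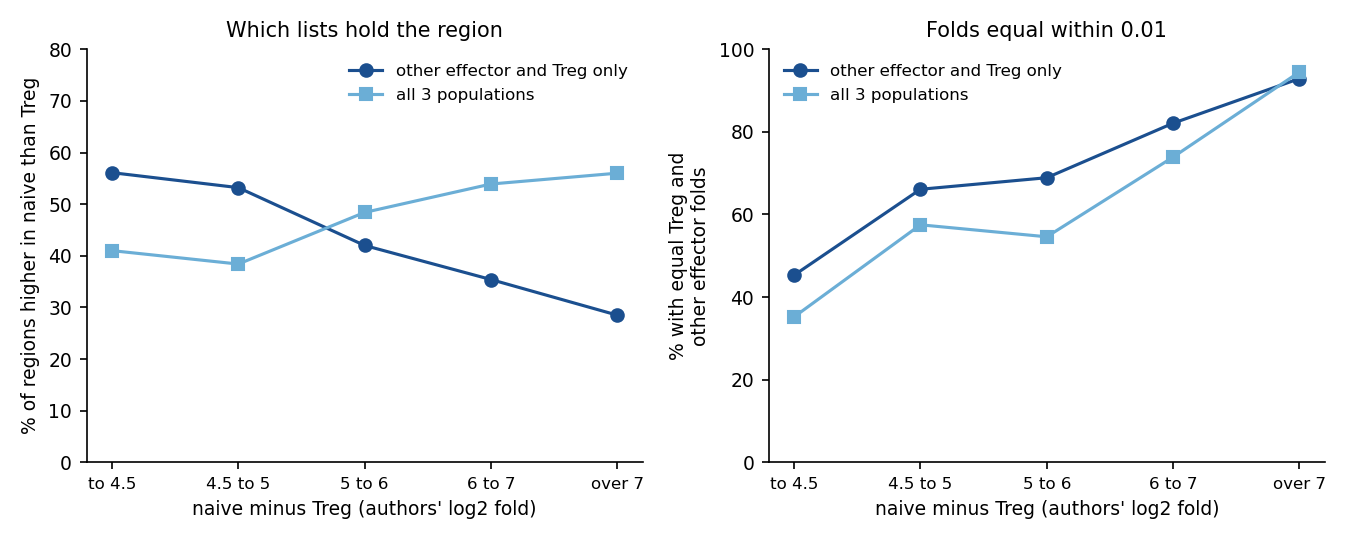
Left, the percentage of regions higher in naive than in Treg cells that were listed against other effector and Treg cells only (circles) or against all 3 populations (squares), by naive minus Treg fold; right, the percentage in each of these 2 sets with equal Treg and other effector folds. Circles fall from 56.1% to 28.5% on the left and rise from 45.3% to 92.9% on the right.

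Across the set, 1226 regions were assigned to 1017 protein-coding genes, by the gene that holds the midpoint or, failing that, the nearest gene end within 100 kb. Of these genes 851 had 1 region, 131 had 2, 27 had 3 and 8 had 4. The 8 were Tcf7, Maml2, Aebp2, Pip4k2a, Bach2, Foxp1, Pde7a and Zfhx3. Regions of 1 gene are not independent of each other.

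Tcf7, which encodes the naive and memory T cell factor TCF-1, held most of the run with the most regions, where neighbours in a run lie within 50 kb of each other. Its 4 regions lay inside the gene, and with 1 assigned to the neighbouring gene Skp1 they made a run of 5 within 35678 bp. The folds over other effector cells rose along the gene toward its start, from 4.70 at chr11:52249295-52249477 and 6.20 at chr11:52254036-52254548 to 8.38 at chr11:52268112-52268992 and 8.73 at chr11:52274610-52276019. Over Treg cells they were 4.71, 6.21, 8.39 and 8.73, so the levels in Treg and other effector cells did not differ by more than 0.01 at any of the 4. Of the 12 Tcf7 regions in which naive exceeded other effector cells, 4 more were listed against all 3 populations and 2 against Th2 and other effector cells only.

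Maml2 encodes a coactivator of Notch. Its 4 regions had folds over other effector and Treg cells of 7.79 and 7.79, 6.17 and 4.35, 5.75 and 4.14, and 6.81 and 6.45. Here 3 of 4 had a higher level in Treg than in other effector cells. Aebp2, a partner of the Polycomb complex PRC2, had its 4 regions beyond the gene, between 375 and 48623 bp from the nearest gene end, with folds over Treg cells of 4.51 to 7.12. Cox10, a gene of heme A synthesis, had 3 regions inside the gene (8.65, 6.74 and 5.11 over Treg cells), and Rapgef4, an exchange factor gene for Rap, 3 (8.32, 5.64 and 7.54). At Pip4k2a, a phosphoinositide kinase gene, 4 regions spanned 30824 bp with folds over Treg cells of 5.53 to 6.81.

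BACH2, a repressor that holds back effector programs, had 4 regions with naive minus Treg folds of 4.09, 6.80, 4.72 and 4.36. They were few among the 50 Bach2 regions in which naive exceeded other effector cells, of which 11 were listed against Th2 and other effector cells only. Foxp1, a forkhead factor of quiescence, likewise had 4 of 55, with folds over Treg cells of 4.46, 5.47, 4.68 and 6.39, and 14 regions of the Th2-low set. Lef1, which encodes a factor of the same TCF/LEF family as TCF-1, had 2 of 32 (folds over Treg cells 4.29 and 5.57). Against these stood 9 of the Th2-low set and 8 listed against all 3. Tgfbr3, a co-receptor for TGF-beta, had 1 of 27 (8.37), against 14 and 10.

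Pde7a, a cyclic AMP phosphodiesterase gene, and Zfhx3, a homeodomain factor gene, had 4 regions each and no region higher in naive than in Th2 cells, a call made at 9.21% of all regions. Pde7a folds over Treg cells were 6.26, 4.31, 5.87 and 4.44, and Zfhx3 folds 5.99, 4.70, 4.24 and 4.07. Among the 35 genes with 3 or more Treg-low naive regions, 3 others had no region higher in naive than in Th2 cells, and they are named here after their values were seen. Il21, a cytokine gene of follicular helper cells, had folds over Treg cells of 4.77, 4.5 and 7.92, all outside the gene. Arhgef6, an exchange factor gene for Rac and Cdc42, had 5.89, 4.94 and 6.94, and Iqsec1, an Arf exchange factor gene, 5.0, 4.52 and 5.02. Over all 1017 genes, 487 (47.9%) had no region higher in naive than in Th2 cells. The same share over all genes was not computed, so 47.9% does not set these genes apart. Of the 13863 genes with any listed region, 12.6% had a Th2-low naive region and 7.03% one listed against all 3. Absence from a list is not evidence of equal accessibility.

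**Figure D4:**
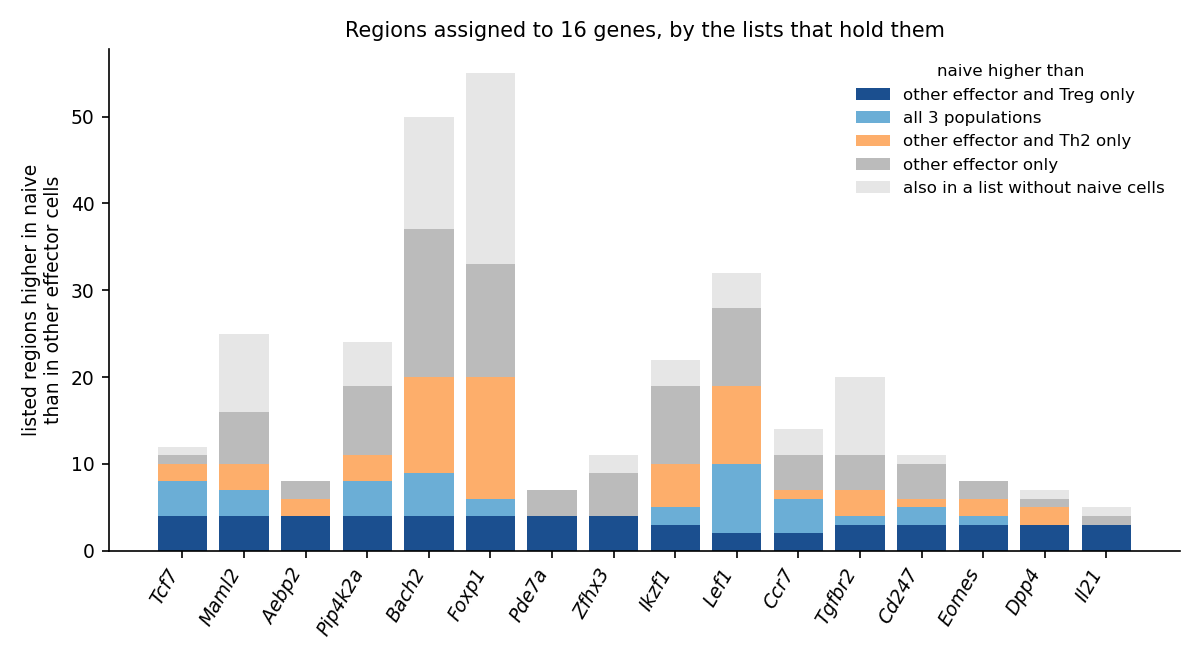
Number of regions listed with naive above other effector cells (vertical axis) assigned to each of 16 genes, stacked by the populations they were listed against. Dark blue marks Treg-low naive regions, which number 4 at Tcf7 among 12, 4 at Foxp1 among 55 and 4 at Pde7a among 7.

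Of the genes fixed for T cell receptor signalling, 14 of 23 held a Treg-low naive region, 19 regions in all. They were 5.67% (3.45% to 8.72%) of the list's 335 regions, against 2.52% of all regions. Among the list's regions with naive above other effector cells they made up 11.0% of 172, against 7.49% of 17700. Among those higher in naive than in Treg cells they were 57.6% of 33, against 43.8%. These 2 shares rest on the same 19 regions and have no interval, so no excess is read from them. The list also had 18 regions higher in Treg than in naive cells. The 19 members had a median fold over Treg cells of 5.75, against 5.09 over the whole set. At 16 of 19 the Treg and other effector folds were equal, against 67.5% of the whole set. These folds chose the members, so both values are a description only. Cd247, the CD3 zeta chain, had 3 regions inside the gene with folds over Treg cells of 5.51, 7.33 and 6.23. Fyn, a Src family kinase, had 2 (5.38 and 4.46) and Rasgrp1, an activator of Ras, 2 (4.90 and 4.74).

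The single regions of this list are named after their values were seen. The largest fold over Treg cells was that of Prkch, protein kinase C eta, at 8.86 (chr12:73698332-73699848, inside the gene). Themis followed at 8.15 and Prkcq, protein kinase C theta, at 7.12. Prkch also held 9 regions higher in Treg than in naive cells, so this gene had regions in both directions. Cd28, the costimulatory receptor, had folds of 6.57 over other effector and 4.83 over Treg cells. Plcg1, Lcp2, Ptprc, Nfatc1 and Vav1 had 1 region each, with folds over Treg cells between 4.61 and 5.95.

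The naive and quiescence list had Treg-low naive regions at 13 of 24 genes, 30 regions in all. They were 5.40% (3.67% to 7.61%) of the list's 556 regions. Of the 391 regions of the list with naive above other effector cells, they made up 7.67%, close to the 7.49% of the background, so by that measure the list does not stand out. Of its 87 regions higher in naive than in Treg cells the Treg-low naive regions made up 34.5%, below the 43.8% of the background. Ikzf1, the lymphoid factor Ikaros, had 3 regions with folds over Treg cells of 5.23, 5.30 and 4.18 and over other effector cells of 6.66, 8.01 and 5.89, so at each the Treg level was the higher of these 2. Tgfbr2, a TGF-beta receptor, had 3 outside the gene (5.0, 6.5 and 6.39 over Treg cells).

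Ccr7, the lymph node homing receptor, had a region at chr11:99144219-99144804 with folds of 6.86 over other effector and 6.87 over Treg cells. A second, 16606 bp from the nearest gene end, had 6.44 and 4.35. Dapl1 had 2 regions (5.28 and 5.41 over Treg cells) and Actn1, an actin crosslinker, 2 (4.16 and 4.77). Bcl2, a survival factor, had 1 at 6.92, and S1pr1, the receptor for exit from lymph nodes, 1 at 5.01. Satb1, Foxo1, Klf2, Il7r, Il6ra, Id3, Txk, Ets1, Myb and Slfn2 had none. The lymphoid transcription factor list overlaps this one, and its 21 regions were 3.05% of 689 (1.90% to 4.62%), against 2.52% of all regions. They were 5.6% of its 375 regions with naive above other effector cells, below the 7.49% of the background. Of its 57 regions higher in naive than in Treg cells they were 36.8%, below the 43.8% of the background. Outside the overlap this list had 1 region each at Zeb2, Tcf4, Elf1 and Zbtb7b, the last encoding the CD4 lineage factor ThPOK, at 6.79 over both.

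Against the 2.52% of all regions, the Treg list had 1 of 240 regions (0.417%, 0.0105% to 2.30%), near Izumo1r, which encodes folate receptor 4 (4.96 over both), and the Th2 list 1 of 129 (0.775%, 0.0196% to 4.24%), near Ccr8, a chemokine receptor (6.03 and 6.04). The interval of the Treg list lies below 2.52%, and that of the Th2 list holds it. Members must be higher in naive than in Treg cells, and only 1 of the 240 regions of the Treg list was. Its share of all regions was thus bound by the rule to be low. Of regions with naive above other effector cells, the members were 2.5% of 40 for the Treg list and 5.56% of 18 for the Th2 list, against 7.49% of all such regions. Ccr8 had 2 further regions higher in Treg than in naive cells. The same 2 lists had 58 and 31 regions higher in Treg than in naive cells, which the rule keeps out, and such regions were 6.64% of all. The Th1 and Th17 list had 4 of 133 (3.01%, and 10.8% of its 37 regions with naive above other effector cells), near Eomes, a factor of cytotoxic and memory cells, with 3 regions 72815 to 90359 bp from the gene (6.24, 7.36 and 5.99 over Treg cells), and near Il23r with 1 (5.38). Cytokine receptors and STATs had 4 of 258 (1.55%, 0.424% to 3.92%), at Tgfbr2 and Tgfbr3 alone. Homing and adhesion genes had 6 of 217 (2.76%, close to the share of all regions), among them 1 each near Cxcr4 (4.95 over Treg cells) and Cd69 (4.39).

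Marker genes of other cells were checked in the same way. The B cell list had 4 of 43 regions (9.30%, 2.59% to 22.1%, against 2.52% of all regions, and 11.8% of its 34 with naive above other effector cells, against 7.49%) at 3 of 10 genes, Cd74 with 2 (4.82 and 4.70 over Treg cells), Ebf1 with 1 (4.61) and Bcl11a with 1 (4.78), and none at Pax5, Cd79a, Cd79b, Ms4a1, Blk or Cr2. CD8 and natural killer genes had 2 of 24 (8.33%, 1.03% to 27.0%), near Prf1, the pore protein perforin (8.12 over other effector and 5.19 over Treg cells), and in Crtam (7.05 over Treg cells). Myeloid genes had 2 of 58 (3.45%, 0.42% to 11.9%), in Itgam (5.85) and Spi1 (4.77). The CD8 and natural killer and the myeloid intervals hold the 2.52% of all regions. Of regions with naive above other effector cells, members were 11.1% of 18 for CD8 and natural killer genes and 14.3% of 14 for myeloid genes. A share above 7.49% was thus not particular to the B cell list. All 3 shares rest on few regions, and no interval was computed for them. Whether other cells in the naive sort had a part in these regions was not tested.

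The largest folds over Treg cells lay at a region of chromosome 4 over 100 kb from any gene end (chr4:10769810-10770839, 9.28 over other effector and 9.29 over Treg cells) and near Plaur, the urokinase receptor gene (chr7:24457317-24458488, 9.28 over both). Extl3 (8.98), Agpat3 (8.89), Prkch (8.86), Adipoq (8.85), Ccdc142 (8.85) and Ralgps2 (8.83) followed. At each of these 8 the Treg and other effector folds were equal to within 0.01. Over other effector cells the largest fold was at Gpr132, a proton-sensing and lipid receptor gene, with 9.37, but 7.29 over Treg cells. A region near Tdrp had 9.06 and 5.83, and one in Nfe2l2, which encodes the oxidative stress factor NRF2, 8.85 and 7.96. Within 1 kb of a gene end among the 10 largest folds over Treg cells were the Ralgps2 promoter and a region 12 bp from a gene end by Vamp1, a vesicle fusion gene (8.67 over both). At the low end over other effector cells were Klhdc1 (3.98), Cercam (4.03), Sympk, Srp9 and Arih1 (4.04 each).

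Treg-low naive regions stood near other listed regions. The nearest had a midpoint a median of 4928 bp away, against 4740 bp for Th2-low naive regions and 4776 bp for regions listed against all 3. For 685 it was a region of none of the 4 naive-high sets, for 309 one listed against other effector cells alone, for 145 a Th2-low one, for 96 one listed against all 3 and for 90 another Treg-low naive region. Within 50 kb, 335 (25.3%) had another Treg-low naive region, against 42.9% for the Th2-low set with its own kind. The Th2-low set has 2692 regions and is thus denser, so these 2 shares cannot be compared directly. A region higher in Treg than in naive cells lay within 50 kb of 199 (15.0%, 13.1% to 17.1%), against 18.6% (17.2% to 20.1%) for the Th2-low set and 12.4% (10.7% to 14.2%) for regions listed against all 3.

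Some genes held regions of more than 1 kind. Of the 1017 genes, 396 (38.9%) also had a Th2-low naive region, which is 22.6% of the 1750 genes with such a region, and 294 (28.9%) had a region listed against all 3. Of the 13863 genes with any listed region, 12.6% had the former and 7.03% the latter. A region higher in Treg than in naive cells was found at 206 (20.3%, against 15.1% of the 13863), and one higher in Th2 than in naive cells at 316 (31.1%, against 21.2%). Genes were not matched on their number of listed regions, so these shares are a description. Nsmce2, a SUMO ligase gene, had 2 Treg-low naive regions and 9 higher in Treg cells, and Wwox had 2 and 6. Akap13, an A-kinase anchoring protein gene, had 3 (4.74, 8.22 and 5.02 over Treg cells) and 4 higher in Treg cells. Dpp4, which encodes CD26, had 3 (5.27, 5.62 and 5.46) and none higher in Treg cells.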

How the data were processed

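The data analysed here were 6 lists of differential ATAC-seq regions, 1 for each pair of 4 populations, with chromosome, start, end and a fold for each region. Per the submitters' processing notes, the authors used DiffBind on build mm9. Its version and threshold, the aligner, the peak caller, any read shift and the normalization were not given in the sources used here. Folds as deposited were read as log2, the scale on which that tool reports them, and the tables have no header. Each fold was taken as the first minus the second population. Around loops of 4 lists the folds then added up to within 0.01 at 9 of 9, 41 of 41 and 985 of 1076 regions with shared coordinates. Pooling, replicate values and depth are not given.

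The coordinates were treated as GRCm38, because unplaced sequences carry GRCm38 names and 16.1% of regions overlapped a RefSeq GRCm38.p6 promoter window, against at most 1.39% after shifts of 10 to 1000 kb. They are printed 1-based. Regions were joined at 1 bp of overlap, which leaves the 2 rows of each member with identical coordinates. A region was assigned to the protein-coding gene holding its midpoint, or otherwise, within 100 kb, to the one whose end lay nearest. All 195 genes of 11 lists matched the table. Promoter windows cover no gene of chromosome 18, so promoter shares leave out its 44 members.

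Members, lists and comparisons were chosen with earlier results of these data known. Named are list genes with 2 or more members, the 12 genes with most members (ties by the largest naive minus Treg fold), the members with the 8 largest folds and 5 smallest folds in each list, members near a gene end among the 10 largest, and others where said. Some genes of the lists, counted in their totals, are not reported here by name. The promoters and the neighbours of members in both directions were also named after their values were seen. Joining, classing and gene assignment were tested on simulated data. No replicate test was possible. Python 3.11.15, pandas 2.3.3 and scipy 1.17.1 were used.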

Additional observations from a re-analysis of the deposited data

How the results depend on the processing

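Joining rows within 200 bp gave 1254 regions, 1201 of them with the same coordinates as before, joining only at an overlap of 50% of the shorter row gave the same 1325, and numbered chromosomes alone gave 1292. Under these 3 choices the shares near a gene end (5.82% to 6.26%) and inside genes (58.9% to 59.2%) moved little. With folds under their own list's median left out, 458 regions were kept, with a median naive minus Treg fold of 6.26 and equal folds at 79.9%, and the median moves by construction there. Counted within 2.5 kb of a gene end, the share was 11.7%. With genes assigned only within 10 kb, 23 genes in place of 35 had 3 or more regions, and the Treg list and the cytokine receptor and STAT list had 0 regions. Counting only regions inside the gene gave 0 for these 2 lists and for the Th2 and the Th1 and Th17 lists, and it gave myeloid genes 10.0% (2 of 20), homing and adhesion genes 1.09% (1 of 92) and the T cell receptor list 6.05%. Within 10 kb the Th1 and Th17 list had 1.0% (1 of 100) and the myeloid list 5.88% (2 of 34). Leaving out a replicate was not possible, since the lists hold none. No paired analysis was possible because the lists hold no replicate values.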

Other observations

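The differences between the Treg and the other effector fold of a region gathered at separate values at the low end. Of the 430 regions where the folds differed, 74 had a difference of 0.35 to 0.37, 17 of 0.5 or 0.51, 53 of 0.64 to 0.67 and 54 of 0.87 to 0.91, and between these ranges 1 region, at 0.77, was found. The remaining regions had differences from 0.99 to 3.55, spread over many values. For Th2 minus other effector cells the most frequent value was -0.19 or -0.18, at 838 of 1418 regions listed against all 3 populations and at 1666 of 2692 Th2-low naive regions. No region of either set lay below it, and the next value above it was 0.2. The tables hold no read counts, so these values were not traced further.

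The regions with the largest Treg level relative to other effector cells lay in Cst7 (8.42 over other effector and 4.87 over Treg cells), in Ttll5 (8.32 and 4.82), near Mdm1 (7.87 and 4.43) and in Ubac2 (8.53 and 5.19). They were chosen after their values were seen.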
